A study of Mus musculus with 12 samples.

Results

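The cells described here are the megakaryocytic cells of mouse c-Kit+ bone marrow, chosen by their platelet transcripts. A cell was taken as megakaryocytic when it held 2 or more UMIs of Pf4 and at least 1 UMI in 3 or more of the 6 genes Pf4, Ppbp, Gp1bb, Gp9, Itga2b and Rab27b. UMIs (unique molecular identifiers) count captured RNA molecules. In all 12 libraries together 528 of 32701 cells met this rule, and the other 32173 cells served as comparison. The values of the 6 genes chose the members, so their levels are given as a description, and so are all levels of members set beside those of other cells. Tests were run on genotypes. The fits across all genes also hold the 6 rule genes, whose results are not read.

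The study asked how activation of NRas and loss of the histone methyltransferase EZH2 act together on hematopoietic stem and progenitor cells. Gene expression was measured cell by cell with a 10x 3′ kit in bone marrow enriched for c-Kit, a receptor of early progenitors, on magnetic columns. All mice were of the C57BL/6 background, were 8 to 12 weeks old by the labels (the study's text gives a younger age at pIpC) and received pIpC, an RNA analogue that switches on Mx1-Cre, including the controls. WT mice lacked Mx1-Cre. E2-KO mice were Mx1-Cre+ with Ezh2 f/f alleles, G12D mice were Mx1-Cre+ with 1 LSL-NRas G12D allele (G12D+/-), and G12D/E2-KO mice carried Mx1-Cre, NRas G12D+/- and Ezh2 f/f. WT and the mutants thus also differ by the presence of Cre, which under the Mx1 promoter also acts in cells outside the blood lineage. Each genotype gave 1 library per time point after pIpC, with T1 at 2 weeks, T2 at 2 months and T3 at 4 months. The labels give the same age range at every time point, so it does not tell age at sampling, which rises with time after pIpC. The labels do not say how many mice stand behind a library. With 1 library per genotype and time point, p-values rest on how far genotype differences vary between the libraries of different time points. This spread may hold technical variation, change with time after pIpC and, at T3, a difference in sex, which cannot be told apart.

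Megakaryocytes are the bone marrow cells that shed platelets into the blood. They arise from progenitors shared with the erythroid lineage, and while they mature they replicate their DNA without dividing (endomitosis), so that their nuclei become polyploid. Later they fill alpha granules with cargo such as platelet factor 4 and von Willebrand factor and build the cytoskeleton from which proplatelets extend. Mature megakaryocytes are large and carry little c-Kit.

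Of the members, 154 held 3 of the 6 genes, 188 held 4, 110 held 5 and 76 held all 6. They carried between 1551 and 30759 UMIs, with a median of 6499, and the sum over the members of a library lay between 135829 and 972278 UMIs. The median number of UMIs per cell was higher in members than in other cells in 11 of 12 libraries, with a median ratio of 1.17, and so was the median number of genes per cell. At the first limit, 29 members had exactly 2 Pf4 UMIs, and 57 cells with 1 Pf4 UMI and 3 or more genes stayed outside. Itga2b stood at 194 CPM (counts per 10 to the power 6 UMIs) just inside and 127 CPM just outside and Vwf at 10.8 and 6.67 CPM. At the second limit, the 154 members with 3 genes stood at 5104 CPM of Pf4 and 103 CPM of Itgb3, and 123 cells with 2 genes stayed outside at 2301 and 52.2 CPM.

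Some Pf4 RNA was found in cells that should not make it. Among late granulocyte-like cells (12221 cells, named from Ngp and other granule genes) 1.26 to 9.67% per library held a Pf4 UMI and 44 cells held 2 or more, at a median depth of 3290 to 6508 UMIs. Among B lymphoid-like cells the share was 0 to 9.09%, at 2110 to 4805 UMIs. Pf4 stood at 3.51 to 23.2 CPM in the first and at 0 to 43.8 CPM in the second. In members it stood at 9355 to 18375 CPM.

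Facts of the whole series that touch these cells are the following. The G12D T1 table held 5648 cells, of which 2896 had a match among the G12D/E2-KO T1 cells and were left out, which took its gated cells from 45 to 20. The labels do not tell which of these libraries the matched cells belong to, and they were kept in G12D/E2-KO T1. Of the gated cells of G12D T1 25 had a match, and G12D/E2-KO T1 held 24 gated cells. Ezh2 stood at 22.3 CPM in those 24 and at 109 CPM in the 20 left in G12D T1. A fit with the matched cells kept in G12D T1 therefore holds them in both libraries. Values from that fit are given below, but they cannot decide whether a call holds, since both libraries then share cells. No cell matched in any of the other 65 pairs of libraries. The WT, E2-KO and G12D libraries of T3 carried Xist at 2260 to 2304 CPM in members, while in G12D/E2-KO T3 members Xist was at 0 CPM and the Y-linked Ddx3y at 55.5 CPM, so the sex of its animals differed from that of the other 3 T3 libraries. Ezh2, the gene deleted, stood at 158, 118 and 125 CPM in WT members at T1, T2 and T3 and at 109, 103 and 103 CPM in those of G12D. E2-KO members had 35.7, 28.9 and 36.8 CPM, and G12D/E2-KO members 22.3, 21.7 and 30.9 CPM. The 6 libraries with Ezh2 f/f all lay below the 6 others. Nras stood at 93.6 ± 29.8, 77.6 ± 22.2, 115 ± 15.8 and 92.5 ± 11.7 CPM in the 4 genotypes in the order named (SD, n = 3), which says nothing of the mutation, since it lies outside what 3′ tags cover.

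The label was checked against genes the rule did not use. Of 16 measured platelet surface receptors, 15 were higher in members than in other cells in every library, and of 22 measured megakaryocyte transcription factors 11 were. Genes are called measured where the mean of their levels in members and in other cells was at least 10 CPM. Over all 7481 such genes, 12.4% were higher and 7.15% were lower in all 12 libraries. Erythroid (16 of 18), early granulocyte (6 of 6) and late granulocyte genes (9 of 10) were lower in members in every library. Endothelial and stromal genes summed to a median of 55.6 CPM in members against 22.2 CPM in other cells, with up to 497 CPM in WT members. T and NK genes had a median of 239 against 348 CPM, but a mean of 326 against 267 CPM in WT. The data did not go against the label for the receptor, transcription factor, erythroid and granulocyte lists. Tubb1, the beta tubulin of platelets, was at 0 CPM in 11 libraries and 2.06 CPM in the other.

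The rule genes encode the platelet chemokines Pf4 (platelet factor 4) and Ppbp (pro-platelet basic protein), the subunits Gp1bb and Gp9 of the von Willebrand factor receptor, the integrin alpha subunit Itga2b (CD41) and the granule-docking GTPase Rab27b. Pf4 and Ppbp are neighbours on chromosome 5 (GRCm38, 90772435 to 90773383 and 90768518 to 90770063, plus strand), with 2371 bases between them. The 250 bases before the start are shown for the rule genes Pf4, Ppbp and Itga2b as examples, and for Npy because its change with genotype had the smallest p. The sequences are from RefSeq on GRCm38.p6, read 5′ to 3′ on the strand of the gene, at chr5:90772185-90772434 (plus strand), chr5:90768268-90768517 (plus), chr11:102469884-102470133 (minus) and chr6:49822460-49822709 (plus). Capitals mark the letters GGAAGT on either strand, the core bound by ETS factors such as Fli1.

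Pf4: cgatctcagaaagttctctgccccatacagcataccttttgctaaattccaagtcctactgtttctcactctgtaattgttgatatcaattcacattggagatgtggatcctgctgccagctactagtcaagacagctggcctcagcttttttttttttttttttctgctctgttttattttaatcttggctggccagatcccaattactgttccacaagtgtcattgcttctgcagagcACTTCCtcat
Ppbp: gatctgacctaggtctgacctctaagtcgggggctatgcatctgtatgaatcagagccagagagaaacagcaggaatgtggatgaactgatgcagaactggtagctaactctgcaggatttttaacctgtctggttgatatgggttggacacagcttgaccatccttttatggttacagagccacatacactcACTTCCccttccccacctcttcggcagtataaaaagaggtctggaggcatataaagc
Itga2b: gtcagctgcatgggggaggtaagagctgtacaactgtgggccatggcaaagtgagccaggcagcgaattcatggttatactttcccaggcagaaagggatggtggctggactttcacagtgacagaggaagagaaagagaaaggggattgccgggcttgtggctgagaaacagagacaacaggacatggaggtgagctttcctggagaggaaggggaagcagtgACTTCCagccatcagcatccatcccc
Npy: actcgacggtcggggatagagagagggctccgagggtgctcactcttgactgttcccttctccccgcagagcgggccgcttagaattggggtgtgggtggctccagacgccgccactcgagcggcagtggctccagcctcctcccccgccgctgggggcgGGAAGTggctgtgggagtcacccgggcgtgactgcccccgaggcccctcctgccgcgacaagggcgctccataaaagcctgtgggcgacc

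Each of these 4 windows held GGAAGT once, which 19.7% of all 32851 promoter windows of that length did, and of the 5 rule genes with an entry 4 held it. The window of Gp1bb did not hold it and is not shown, and neither is that of Gp9, which did. AGATAA, a form of the letters bound by GATA factors, was in none of the 5 and in 9.99% of all windows. Other forms were not searched, so these windows may hold GATA sites. Among 27 windows of the unlisted genes highest in members 14.8% held GGAAGT, and among 17 windows of surface receptor genes 23.5% held GGAAGT and 29.4% AGATAA. The 2 motifs do not overlap with each other. These matches are descriptions of the letters and were not tested.

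Members differed far more among libraries in some rule genes than in others. Pf4 stood at 12143, 14167 and 9355 CPM in WT at T1 to T3 and at 12702, 12355 and 12884 CPM in E2-KO. The G12D libraries had 11082, 13327 and 13780 CPM and those of G12D/E2-KO 14566, 18375 and 10033 CPM, so the genotypes overlapped. Gp1bb ranged from 225 to 546 CPM, Itga2b from 250 to 563 CPM, Rab27b from 167 to 452 CPM and Gp9 from 36.8 to 242 CPM. Ppbp ranged from 25.7 to 3428 CPM, with WT T1 (1804 CPM), G12D/E2-KO T2 (3428 CPM) and G12D/E2-KO T3 (974 CPM) above all others. Single cells rich in Thbs1, described further on, also held much Ppbp in these 3 libraries.

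Surface receptors were led by Cd9, a tetraspanin, with 678 ± 189 CPM in members and 120 CPM in other cells (mean ± SD of 12 libraries, and mean). Itgb3, the beta subunit that pairs with Itga2b to bind fibrinogen, stood at 273 ± 264 CPM against 4.73 CPM. F2rl2, a thrombin receptor of mouse platelets, was at 133 CPM and Treml1 at 92.0 CPM, each below 1 CPM on average elsewhere. Gp5 (90.1 CPM), which joins Gp1bb and Gp9, and Clec1b (92.7 CPM), the podoplanin receptor, were also higher in all 12 libraries. Gp6, the collagen receptor, was at 0 to 65.0 CPM and higher in only 6 of 12 libraries. The list had a median log2 ratio of 2.17 (members over other cells, 10 CPM added to both), against 0.16 over all genes.

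Alpha granule cargo was present as RNA. Vwf (von Willebrand factor) stood at 179 ± 61.5 CPM against 2.78 CPM, Serpine2 (a protease inhibitor) at 266 ± 69.1 CPM against 22.3 CPM, Timp3 (an inhibitor of matrix proteases) at 129 ± 56.2 CPM against 0.369 CPM, and Mmrn1 (multimerin) at 113 ± 44.7 CPM against 2.49 CPM. Of 11 measured cargo genes, 8 were higher in all 12 libraries and 1 was lower in all. Against megakaryocyte-erythroid progenitor (MEP)-like cells the summed cargo list was not higher throughout. It was lower in members in most libraries, such as G12D T1 (1319 against 2150 CPM) and WT T2 (1777 against 2282 CPM). In others it was higher, such as G12D/E2-KO T2 (3397 against 1936 CPM). Srgn, the granule proteoglycan that granulocytes also make, did not differ in one direction (603 against 633 CPM). Genes of granule formation and secretion were more mixed: 6 of 13 were higher in all libraries, led by Sdpr (262 against 0.968 CPM), a caveolar protein, and Plek (537 against 17.0 CPM), the pleckstrin of platelets. Nbeal2, which alpha granule formation needs, stood at only 14.6 CPM against 10.6 CPM.

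Of 18 measured platelet signalling genes, 11 were higher and 2 were lower in members in every library. Rap1b, the small GTPase that switches on integrins, stood at 1391 ± 231 CPM against 187 CPM, Rgs18, a G protein regulator of platelets, at 634 ± 115 CPM against 100 CPM, and Gng11, a G protein gamma subunit, at 221 ± 125 CPM against 13.7 CPM. The eicosanoid enzymes Ptgs1 (cyclooxygenase 1, 94.5 CPM) and Tbxas1 (thromboxane synthase, 74.5 CPM) were higher in all libraries. Alox12, the platelet lipoxygenase, ranged from 0 to 161 CPM and was higher in 9. Of the cytoskeletal list, 8 of 19 were higher and 1 was lower throughout, and the lowest median log2 ratio was -2.57. Among the higher ones were Tmsb4x (thymosin beta 4, 17692 against 9322 CPM) and Tpm4 (a tropomyosin, 220 against 34.1 CPM). Flna (filamin A) was at 106 CPM against 96.0 CPM and higher in only 4 libraries.

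Among transcription factors Mef2c (542 against 51.4 CPM), the ETS factor Fli1 (304 against 70.8 CPM) and Meis1 (163 against 11.5 CPM) were higher in all 12 libraries. Gata2 stood at 128 CPM against 22.2 CPM in all other cells, but at 322 CPM in megakaryocyte-erythroid progenitor (MEP)-like cells, which were gated by Gata2 itself and other genes. Gata1 (90.6 CPM) and Nfe2 (132 CPM), which platelet formation needs, were closer to the other cells (51.8 and 75.1 CPM) and higher in 11 libraries each. Lyl1 was lower in all 12 (45.9 against 89.6 CPM).

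**Figure D1:**
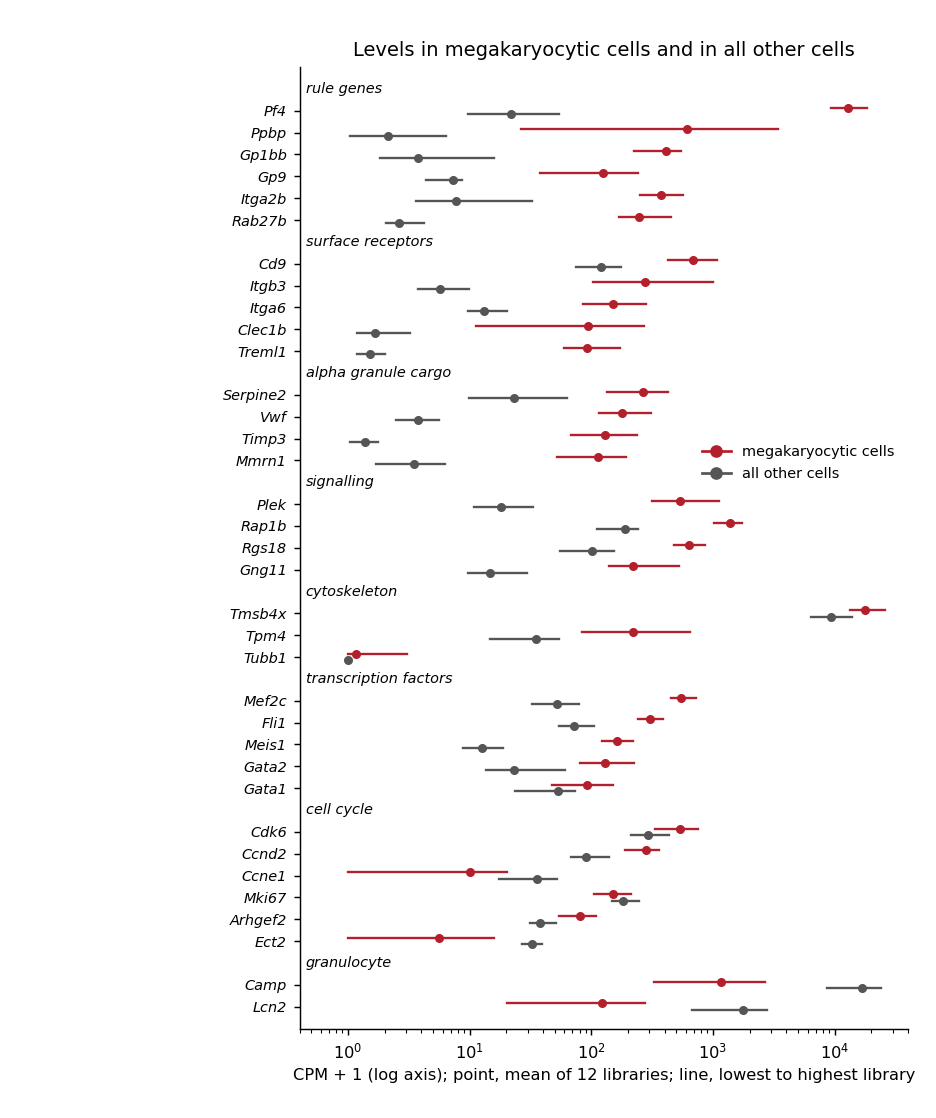
Level of selected genes in megakaryocytic cells (red) and in all other cells (grey), as CPM + 1 on a log axis. Points are means of 12 libraries and lines run from the lowest to the highest library; Pf4 in members (9355 to 18375 CPM) lies far above other cells, Tubb1 stays near 0 in both, and Camp and Lcn2 are lower in members.

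Genes on none of the lists were ranked by their ratio. Nrgn, a calmodulin-binding protein, led with 725 ± 252 CPM against 27.5 CPM, a median log2 ratio of 4.37. Lat, the adaptor of T cell and collagen receptor signalling, stood at 209 against 7.35 CPM, and F2r, another thrombin receptor, at 174 against 7.28 CPM. Gucy1a3 (a subunit of soluble guanylate cyclase) stood at 76.2 against 0.430 CPM, Mrvi1 (a target of cGMP kinase) at 113 against 0.608 CPM and Pde5a (the phosphodiesterase that degrades cGMP) at 94.5 against 3.04 CPM. Slc14a1, the urea transporter, was at 257 against 20.6 CPM, and Pdcd4, a translation inhibitor, at 881 against 159 CPM. At its lower end stood Wfdc21 (113 against 1814 CPM), Ly6c2 (110 against 1166 CPM) and Cd24a (71.3 against 861 CPM).

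Genes of ploidy and the cell cycle set these cells apart less than platelet genes did. Cdk6, a D cyclin kinase, was higher in all 12 libraries (532 ± 123 against 291 CPM), as were Ccnd2 (cyclin D2, 282 ± 54.7 against 89.2 CPM) and Ccnd1 (cyclin D1, 40.6 ± 23.1 against 11.4 CPM). Cyclin E genes were lower: Ccne1 stood at 9.05 against 35.0 CPM (lower in 11) and Ccne2 at 23.5 against 39.2 CPM (lower in 12). Of 22 mitosis and checkpoint genes none was higher or lower in all 12 libraries, and the list had a median log2 ratio of -0.17. Mki67 stood at 150 against 182 CPM, Cdk1 at 76.0 against 99.4 CPM, Top2a at 304 against 276 CPM and Aurkb at 51.4 against 50.1 CPM.

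In the cytokinesis list 1 gene was lower and 1 was higher in all 12 libraries. Each is 6.25% of its 16 measured genes, while over all genes 7.15% were lower and 12.4% were higher. Ect2, the exchange factor that activates RhoA at the cleavage furrow, stood at 4.63 CPM in members, 31.6 CPM in other cells and 29.5 CPM in MEP-like cells, and was lower than in other cells in 12 of 12 libraries. It was at 0 CPM in 5 member libraries and reached 14.7 CPM in the highest, E2-KO T3. Arhgef2 (GEF-H1), the second exchange factor of the furrow that background knowledge ties to endomitosis, was at 79.3 ± 18.6 CPM against 36.9 CPM, higher in all 12, and at 77.5 CPM in MEP-like cells. Myh10, the non-muscle myosin of the contractile ring, was at 4.30 against 15.5 CPM, while Myh9 was at 98.8 against 49.6 CPM. The other cytokinesis genes were near the other cells, such as Racgap1 (52.6 against 46.0 CPM), Anln (26.6 against 29.0 CPM), Cit (55.8 against 48.3 CPM) and Rhoa (241 against 250.2 CPM). Ect2 was chosen among 16 measured genes of its list after its values were seen. Of the CDK inhibitors, Cdkn2d was at 126 against 119 CPM, Cdkn2c at 58.8 against 86.9 CPM and Cdkn3 at 33.1 against 71.0 CPM.

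Because members carried more UMIs per cell, cells with cycle transcripts were counted after each cell had been thinned to 1400 UMIs. The share of cells with 3 or more UMIs of the mitosis list was 34.6 to 56.3% in members (median 43.7%), 46.3 to 61.8% in other cells (median 52.2%), 21.4 to 55.1% in MEP-like cells (median 36.5%) and 57.1 to 75.9% in early erythroid-like cells (median 69.4%). Members were below other cells in 10 of 12 libraries, above MEP-like cells in 10 and below early erythroid-like cells in 12. For the list of G1/S and replication genes the medians were 74.8, 61.7, 66.6 and 81.4%, and members were above other cells in 10 libraries. In the sums over all UMIs this order was not seen, with a median of 2852 CPM in members and 2907 CPM in other cells. Of the 28 genes of this list 3 were higher and 6 were lower in all 12 libraries, with a median log2 ratio of -0.16. The list also holds G1 genes such as Ccnd1, which was higher in members in all 12 libraries. Its share therefore does not count replicating cells alone. UMI counts do not measure DNA content, so ploidy itself was not measured.

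**Figure D2:**
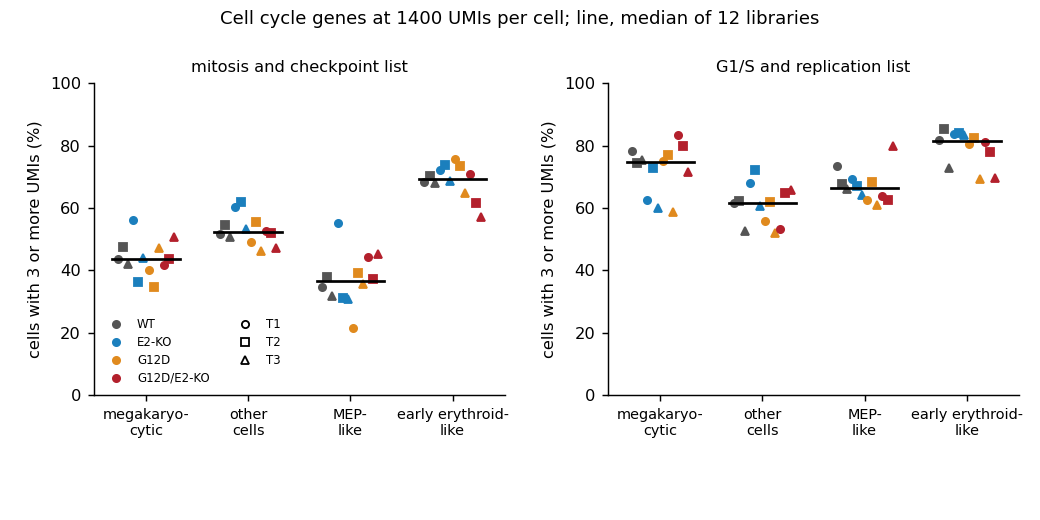
Share of cells with 3 or more UMIs of the mitosis and checkpoint list (left) or the G1/S and replication list (right), in percent, after thinning every cell to 1400 UMIs. Each point is a library, coloured by genotype with its shape giving the time point, and lines are medians of 12 libraries; for mitosis genes the members' median of 43.7% lies between MEP-like cells (36.5%) and early erythroid-like cells (69.4%).

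Within members, the share of UMIs from the 6 rule genes ran from 0.0226 to 6.81%, with a median of 0.995%. Members of each library were split by this share into a low (180 cells), a middle (177) and a high group (171), whose medians were 0.224, 1.03 and 2.00%. Their median UMI numbers were 5750, 6271 and 8469. The values that follow are medians over 12 libraries of the CPM in each group, they are a description, and genes were picked after their values were seen.

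Platelet genes that the split did not use were higher in the high group. Itgb3 stood at 40.8, 110.0 and 289 CPM in the low, middle and high group, Vwf at 50.4, 142 and 261 CPM, and Timp3 at 19.6, 88.1 and 201 CPM. Clec1b was at 0, 22.5 and 106 CPM and Gnaz, a platelet G protein subunit, at 8.36 CPM in the low and 115 CPM in the high group. Cytoskeletal genes showed the same order, with Tpm4 at 41.9, 102 and 270 CPM and Tmsb4x at 7621, 16688 and 24337 CPM, and so did Pdia6, a disulfide isomerase of the secretory pathway (63.5, 105 and 274 CPM). The summed surface receptor list was higher in the high group in 12 of 12 libraries, and the median gene of all 7544 genes had a log2 difference of 0.04.

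Some progenitor genes were lower in the high group, while the stem and progenitor list as a sum did not go one way. It stood at 1163, 1073 and 1124 CPM in the low, middle and high group, higher in the high group in 5 libraries and lower in 7. Apoe, a marker of MEPs, stood at 337, 108 and 53.2 CPM, lower in 12 of 12 libraries. Kit, the receptor used for enrichment, was at 70.4, 36.3 and 26.6 CPM, Myc at 79.4, 54.3 and 39.7 CPM, Bcl11a at 152, 66.5 and 47.1 CPM and Gata2 at 156, 119 and 95.5 CPM. Cmtm7, a surface protein best known from B cells, was at 467, 311 and 148 CPM. Fli1 (214, 321 and 346 CPM) and Mef2c (403, 526 and 631 CPM) ran the other way from Gata2.

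Cycle genes did not follow one course. Cdk6 was at 693, 658 and 343 CPM and lower in the high group in 10 of 12 libraries. The mitosis list summed to 2376, 2147 and 2446 CPM (higher in 7, lower in 5) and the G1/S list to 2945, 2970 and 2623 CPM (lower in 9). Cdkn2d (p19 INK4d), an inhibitor of Cdk4 and Cdk6, was at 83.5, 104 and 147 CPM and higher in 9 of 12. The sums of the mitosis list were thus near each other at both ends of the split. Early granulocyte genes summed to 1058, 514 and 439 CPM and late granulocyte genes to 4814, 5007 and 4396 CPM.

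**Figure D3:**
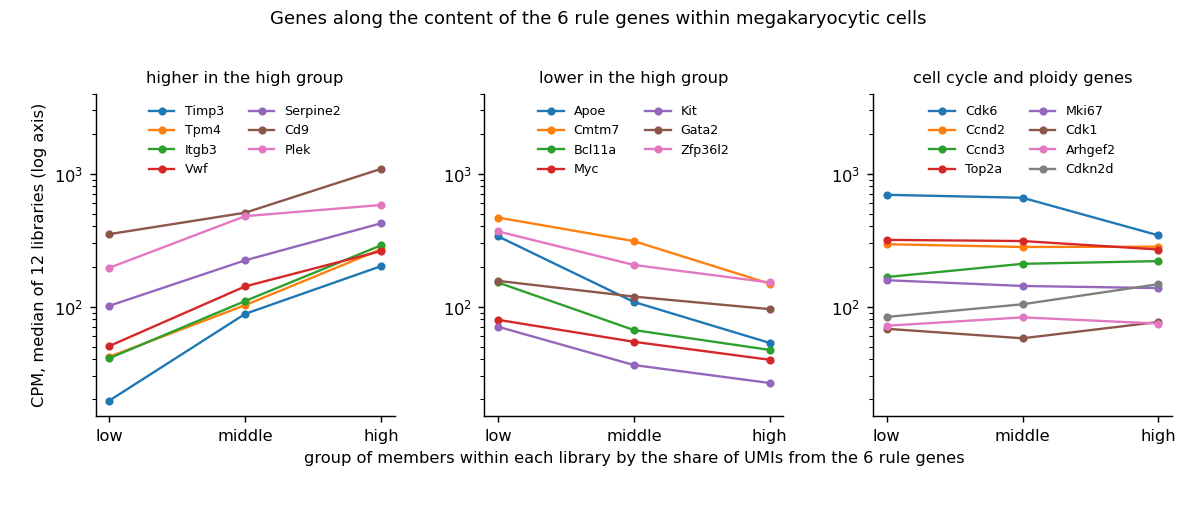
CPM (log axis, median of 12 libraries) in the low, middle and high group of members by their share of UMIs from the 6 rule genes. Vwf, Itgb3 and Timp3 are higher toward the high group (left), Apoe and Kit lower (middle), and most cycle genes level apart from Cdk6 with 343 CPM and Cdkn2d with 147 CPM in the high group (right).

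Single members carried most of the Thbs1 RNA. Thbs1 encodes thrombospondin 1, an alpha granule protein, and stood at 1051 CPM in WT T1, 1064 CPM in G12D/E2-KO T2 and 585 CPM in G12D/E2-KO T3, against 3.81 to 71.4 CPM in the other 9 libraries. Of all members, 6 held 20 or more Thbs1 UMIs. The 3 of them in WT T1 had 81 to 151 Thbs1 UMIs and 124 to 278 Ppbp UMIs, and also 19 to 54 UMIs of Cxcl12 and 1 to 8 of Lepr, genes of marrow stromal cells. The 3 in G12D/E2-KO (1 at T2, 2 at T3) had 27 to 533 Thbs1, 184 to 982 Ppbp and 86 to 276 Gng11 UMIs, with no UMI of Cxcl12 or Lepr and at most 2 of the mitosis list. The part of cell pairs in these cells was not tested. Values without them were added after the data were seen.

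The share of megakaryocytic cells was compared next. It was 1.36, 2.07 and 2.39% in WT at T1, T2 and T3, 1.31, 1.12 and 0.967% in E2-KO, and 0.727, 1.08 and 0.666% in G12D. In G12D/E2-KO it was 0.788, 1.46 and 5.66% (95% Wilson interval at T3 4.83 to 6.61%, for counting error only), from 24 of 3044, 55 of 3767 and 148 of 2617 cells. The means were 1.94 ± 0.525, 1.13 ± 0.171, 0.824 ± 0.222 and 2.63 ± 2.64% (SD, n = 3). The G12D/E2-KO library of T3 was the highest of the 12, while that of T1 lay among the G12D libraries. All 3 G12D libraries lay below all 3 of WT. The E2-KO libraries did so only narrowly, with 32 of 2445 cells at T1 against 32 of 2350 in WT T1, and with a gate at 1 Pf4 UMI E2-KO T1 lay above WT T1 (1.55 against 1.53%).

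No test of the share passed. The interaction (G12D/E2-KO minus both single mutants plus WT, as log2 share) was 1.96 ± 2.18 (SD over 3 time points, above 0 in 3 of 3), with an exact two-sided permutation p = 0.25, the smallest that 3 time points allow (Benjamini-Hochberg adjusted over 4 tests, 0.688). The mean Ezh2 effect over 6 pairs was 0.23 (exact permutation p = 0.813) and the mean NRas effect -0.25 (exact permutation p = 0.688). G12D/E2-KO against the mean of the other 3 genotypes gave 0.64 (exact permutation p = 0.344, adjusted 0.688), and without any one of the T3 libraries it was -0.18. At T3 the other sex of the double mutant library cannot be told apart from its genotype. Shares are of c-Kit-enriched cells, so fewer members and more of other cells cannot be told apart.

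**Figure D4:**
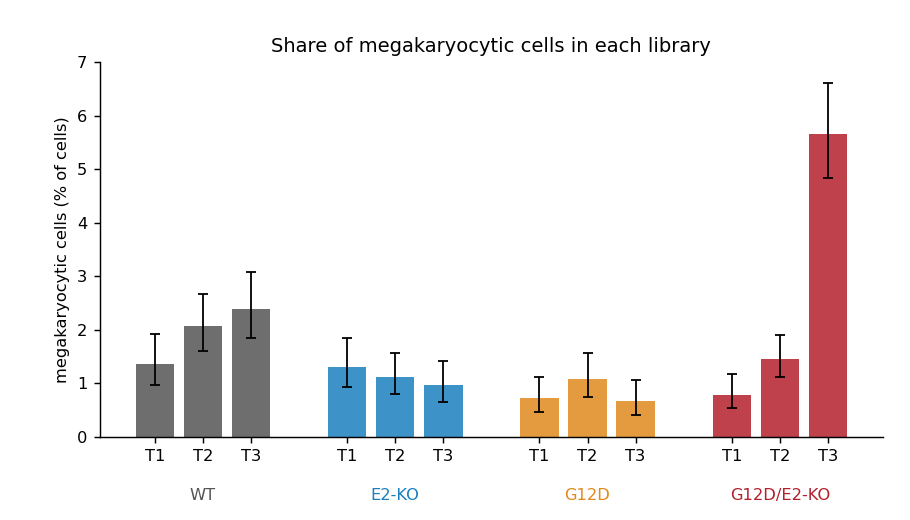
Megakaryocytic cells as percent of all cells of each library, by genotype and time point, with 95% Wilson intervals that cover counting error only. G12D/E2-KO T3 stands at 5.66%, above the other 11 libraries, which lie between 0.666 and 2.39%.

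Genotype changes within members were tested on counts summed over the members of each library with edgeR's quasi-likelihood test (genotype and time point as factors, Benjamini-Hochberg adjustment over 3597 genes, threshold 0.05). Against WT, 10 genes passed in E2-KO (7 higher, 3 lower, 0.278% of those tested), 3 in G12D (all higher, 0.0834%) and 14 in G12D/E2-KO (11 higher, 0.306%, and 3 lower, 0.389% in all). The split for E2-KO depended on the setting, with 5 higher and 14 lower by DESeq2, 10 and 15 with only both genotypes compared in the fit, and 11 and 13 with no filter on low counts. For G12D it was 12 higher and 9 lower with only both genotypes compared, and 11 and 5 with no filter. The comparisons with WT share the WT libraries, and the sex of the animals was not a factor in the fits. To use all libraries, a mean Ezh2 effect was added after the data were seen (the mean of E2-KO against WT and of G12D/E2-KO against G12D), in which 15 genes passed (12 higher, 3 lower, 0.417%). Its split was 4 higher and 5 lower with a stricter gate (5 or more Pf4 UMIs and 4 or more of the 6 genes) and 8 and 8 without G12D/E2-KO T3. For the mean NRas effect 1 passed (0.0278%), and for the interaction 2 (0.0556%). With an unadjusted p under 0.05 there were 250 genes for E2-KO (6.95% of those tested), 185 for G12D (5.14%) and 239 for the double mutant (6.64%). A share of about 0.05 would lie there with no effect at all.

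The change with the smallest p was that of Npy, which encodes neuropeptide Y, a secreted peptide of neurons that rodent megakaryocytes and platelets are also known to hold. Npy stood at 3.05, 1.90 and 0 CPM in WT members at T1 to T3 and at 0 CPM in all 3 G12D libraries. E2-KO members had 53.5, 67.4 and 51.5 CPM, and those of G12D/E2-KO 93.7, 176 and 176 CPM. The 6 libraries with Ezh2 deleted lay above all others. Without the members rich in Thbs1, G12D/E2-KO had 93.7, 90.4 and 66.9 CPM, so that T3 lay within the range of E2-KO. In molecules, these were 2 UMIs in 148 WT members, 33 in 90 E2-KO members, 0 in 63 G12D members and 249 in 227 G12D/E2-KO members. Npy rose in E2-KO (ratio 40.0 to WT, counting interval 10.2 to 344, adjusted p = 0.000226 by edgeR) as well as in G12D/E2-KO (ratio 113, interval 30.9 to 936, adjusted p = 6.44e-08). Without the members rich in Thbs1 the second ratio was 51.1 (interval 13.8 to 427). All these intervals rest on UMIs summed over libraries and cover counting error only, not the spread between cells or libraries.

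Npy was a gene of few cells. It was detected in 14 of 90 E2-KO members (15.6%) and in 46 of 227 G12D/E2-KO members (20.3%), against 2 of 148 in WT (1.35%) and 0 of 63 in G12D. By counting error over pooled cells only, 0 of 63 allows up to 4.76% of cells with an Npy UMI. It does not limit the cells that express Npy. Drawn to 1400 UMIs per cell, the shares were 4.75, 7.02, 0.129 and 0% in the same order. Single cells weighed on the sums, since 1 member of G12D/E2-KO T3 held 86 of its 171 Npy UMIs. Without the 6 members rich in Thbs1 the log2 change in G12D/E2-KO was 5.50 instead of 6.43 and still passed (adjusted p = 1.04e-06). In the mean Ezh2 effect Npy passed (log2 6.89, adjusted p = 1.14e-07 by edgeR). With the matched cells kept in G12D T1 it did not (log2 3.79, adjusted p = 0.0887), and neither did E2-KO against WT (log2 5.05, adjusted p = 0.315). In that fit G12D/E2-KO against WT passed (adjusted p = 0.0227). The matched cells then count in G12D T1 and in G12D/E2-KO T1, whose members held 21 Npy UMIs. That fit therefore cannot decide whether the change holds. Cells outside the members held 1 Npy UMI in WT, 6 with E2-KO, 2 with G12D and 12 with both alleles.

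Among members with Ezh2 deleted, Npy lay with the platelet content. It was detected in 3 of 108 cells of the low group, 15 of 105 of the middle and 42 of 104 of the high group, at 4.90, 30.1 and 298 CPM. In the high group 3 cells rich in Thbs1 held 138 of the 261 Npy UMIs, and without them it stood at 149.7 CPM, with Npy in 39 of 101 cells. At 1400 UMIs per cell the shares were 0.878, 4.07 and 14.4%, so the order was the same at equal depth. Npy (chromosome 6, 49822710 to 49829507, plus strand, GRCm38) lies 2.23 Mb from Ezh2 (chromosome 6, 47530139 to 47595341, minus strand), the edited gene. Arf5 (chromosome 6, 28423560 to 28426602) lies 19.1 Mb from Ezh2, and these were the 2 called in the Ezh2 effect among 62 tested genes within 25 Mb of it, beside 14 called among all 3486 tested genes with a position. The part of the edited chromosome in these changes was not tested.

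The genes that passed in the Ezh2 effect were on none of the platelet lists. Arf5, a small GTPase of vesicle traffic, fell from 296, 360 and 331 CPM in WT and 248, 367 and 302 CPM in G12D to 138, 140 and 58.9 CPM with E2-KO and 93.7, 127 and 112 CPM with both alleles (log2 -1.47, SE 0.16, adjusted p = 8.82e-06). Ezh2 itself fell by 1.97 (SE 0.22, adjusted p = 8.82e-06). Bmi1, a subunit of Polycomb repressive complex 1, rose from 33.5, 15.2 and 19.2 CPM in WT and 30.3, 31.0 and 19.3 CPM in G12D to 62.4, 81.9 and 162 CPM with E2-KO and 71.4, 89.7 and 98.7 CPM with both alleles (log2 1.91, SE 0.29, adjusted p = 0.000793). For each of these 3 genes the libraries with and without Ezh2 deletion did not overlap, and all 3 passed with any single library left out. In cells outside the members Bmi1 held 1123 UMIs in WT and 900 in G12D, but 4005 in E2-KO and 4175 in G12D/E2-KO. Ezh2 held 6513 and 4831 there, against 1547 and 1234. Both changes were thus also found outside members. Neither gene was called in E2-KO or G12D/E2-KO when the change in members was set against that in other cells.

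Other genes with higher levels in the Ezh2 effect were Chchd7, a mitochondrial protein (log2 1.21, adjusted p = 0.000793), Bex4, a tubulin-binding protein (1.57, adjusted p = 0.0043), Cenpv, a centromere protein (1.78, adjusted p = 0.00838), Sapcd1 (2.24, adjusted p = 0.0110), Mt1, a metallothionein (0.94, adjusted p = 0.0226), and Macrod2 (1.31, adjusted p = 0.0430). With the matched cells kept in G12D T1, Bex4, Cenpv, Mt1, Macrod2 and Pttg1 did not pass (adjusted p = 0.0658 to 0.414), and Mt1, Macrod2 and Pttg1 passed in only 5 of the 12 fits that left out 1 library. Cenpv and Sapcd1 passed in 10 of these fits (adjusted p up to 0.115 and 0.259). Pttg1, the securin that guards sister chromatids until anaphase, passed at 1.08 (adjusted p = 0.0485) and was the only one of 17 tested mitosis genes to do so. Its level was 34.6 ± 8.98 CPM in WT and 149.5 ± 90.7 CPM in E2-KO, while G12D members had 108 ± 56.6 CPM and double mutant members 113 ± 16.8 CPM. Cd24a, a surface sialoprotein of early blood cells, fell by 1.31 in the Ezh2 effect (adjusted p = 0.0188). There it passed in 9 of 12 fits that left out 1 library (adjusted p up to 0.247). Its change in G12D/E2-KO against WT, another contrast, was -2.02, with 99.4 ± 12.8 CPM in WT and 21.7 ± 6.12 CPM in G12D/E2-KO. Cd24a stood at 861 CPM in other cells against 71.3 CPM in members, and the part of their RNA in this fall was not tested. Gdpd3, a lysophospholipase D, was at 1 UMI in all WT members and at 35 UMIs in E2-KO, 24 in G12D and 74 with both alleles, and passed against WT in each mutant. It held 488 to 3134 UMIs per genotype in other cells, and its reads may be shared with neighbouring or copied sequence, so it is uncertain.

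**Figure D5:**
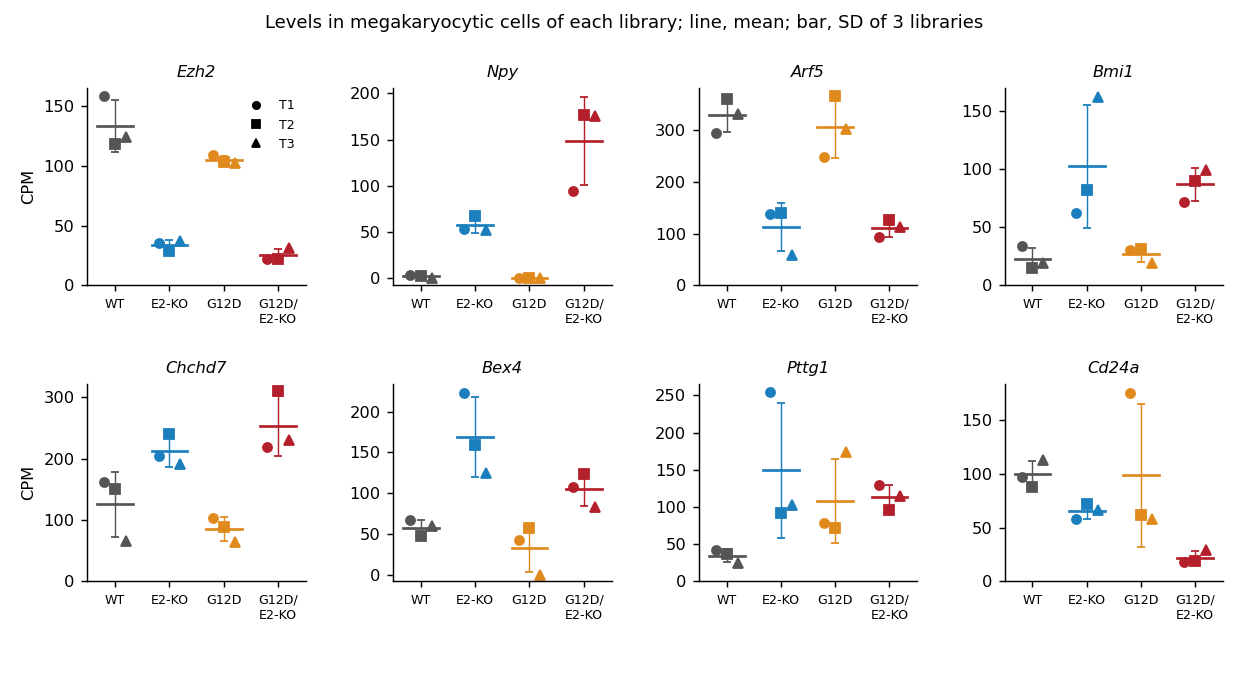
CPM in megakaryocytic cells of each library for 8 genes, by genotype, with circles for T1, squares for T2 and triangles for T3. Horizontal lines are means and bars SD of 3 libraries; Npy is at 51.5 CPM or more in all libraries with Ezh2 deleted and at 3.05 CPM or less in the others.

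Against WT, G12D/E2-KO members also differed in Gng11 (170, 442 and 525 CPM against 166 to 188 CPM in WT, adjusted p = 0.0345), Dstn (an actin-severing protein, 1.22, adjusted p = 0.0478) and Tmem158 (62.5, 95.9 and 154 CPM against 36.4 to 49.5 CPM in WT, adjusted p = 0.0478). Leaving out 1 library at a time, Gng11 and Tmem158 passed in 3 of 12 fits and Dstn in 4, with an adjusted p of up to 0.948 for Tmem158. Gng11 rested on single cells. A single cell of T3 held 276 of its 510 Gng11 UMIs, and without the 6 members rich in Thbs1 its log2 change went from 1.13 to 0.15 (adjusted p = 0.926) and that of Dstn from 1.22 to 0.90 (adjusted p = 0.0897). In E2-KO, Atox1, a copper chaperone, rose from 360 ± 26.2 to 681 ± 71.2 CPM (adjusted p = 0.00799), and Chil3, a granulocyte gene, fell from 113 ± 11.4 to 26.0 ± 11.2 CPM (adjusted p = 0.00588). Both passed in 9 of 12 fits that left out 1 library (adjusted p up to 0.167 for Atox1 and 0.229 for Chil3). Beside Gdpd3, the calls in G12D were Gm7102 and Gm15013, which are named as gene models and may share reads with near-identical copies, so they are uncertain. Leaving out 1 library, Gm7102 passed in 5 of 12 fits and Gm15013 in 4 (adjusted p up to 0.372). With the matched cells kept in G12D T1, Gm15013 did not pass (adjusted p = 0.0573).

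None of the tested platelet lists had a member past the threshold in E2-KO or G12D. In G12D/E2-KO Gng11 was the only one of 16 tested platelet signalling genes past it, and 0 of 12 surface receptors, 0 of 10 alpha granule genes, 0 of 16 cytoskeletal genes and 0 of 15 transcription factors passed. Their median log2 changes in G12D/E2-KO were 0.33 for signalling, 0.55 for surface receptors, 0.22 for cargo, 0.32 for the cytoskeleton and 0.04 for transcription factors, against 0.01 over all genes. For example, the log2 difference was 0.32 for Vwf (adjusted p = 0.892). For ploidy and cycle genes the medians were 0.02 for mitosis and 0.12 for cytokinesis genes, with Pttg1 as the single call among 17, 10 and 23 tested mitosis, cytokinesis and G1/S genes. In E2-KO the medians were 0.22 for mitosis (15 of 17 genes above 0) and 0.35 for cytokinesis genes (8 of 10 above 0), against -0.01 over all genes. The mitosis list summed to 3860, 2028 and 3261 CPM in E2-KO at T1 to T3 against 2317 to 2556 CPM in WT, so that T2 lay below all WT libraries. In these members early granulocyte genes summed to 1506, 554 and 1708 CPM against 554 to 718 CPM in WT (median log2 change 0.83), and erythroid genes had a median of 0.56 with 8 of 10 above 0. The part of RNA of these lineages in the cycle values was not tested. In E2-KO Pttg1 was again the single call, and at an unadjusted p under 0.05 4 genes of each list were higher, which 3.92% of all genes were. Ccnd1 stood at 21.3, 22.8 and 19.2 CPM in WT and 13.4, 33.7 and 22.1 CPM in E2-KO. In G12D it stood at 60.5, 56.8 and 89.9 CPM, and in the double mutant at 35.7, 55.7 and 56.6 CPM. All 6 libraries with NRas G12D lay above the 6 others, but the mean NRas effect of 1.42 (SE 0.30) missed the threshold (adjusted p = 0.107). The 1 gene past it was Lipe, hormone-sensitive lipase (1.21, SE 0.19, adjusted p = 0.00693), which passed in 10 of 12 fits that left out 1 library (not without E2-KO T1 or without G12D T1, adjusted p up to 0.278) and not without the time point in the fit.

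RNA of other lineages in members differed between the libraries. Late granulocyte genes summed to 10275 to 14401 CPM in WT members, 1551 to 2717 CPM in those of E2-KO, 4256 to 9118 CPM in those of G12D and 1499 to 9691 CPM in the double mutant. In the other cells of the same libraries they summed, in this order, to 112058 to 132062, 39550 to 57924, 112325 to 123976 and 39953 to 150744 CPM. Of 9 tested late granulocyte genes, 9 were lower in E2-KO at an unadjusted p under 0.05, which 3.03% of all tested genes were, and Chil3 passed the adjusted threshold. At that p 2 of the 9 were lower in G12D (2.09% of all tested genes) and 2 in G12D/E2-KO (2.72%). Erythroid genes summed to 796 to 12738 CPM, with E2-KO T1 highest. The part of free RNA in the droplets or of paired cells in these values was not tested.

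The last test asked whether a change from WT was different in members than in all other cells of the same libraries. It called 1 gene in E2-KO (0.0278% of those tested), 4 in G12D (0.111%) and 12 in G12D/E2-KO (0.334%). Of these 12, 1 was a rule gene, whose level the gate sets, and is left out of what follows. The other 11 had the lower change in members, but with rule genes left out there were 25 higher and 14 lower without WT T1, 29 higher and 14 lower without G12D/E2-KO T1, and 25 higher and 35 lower with no filter on low counts. Against MEP-like and early erythroid-like cells in place of all other cells, 10 genes outside the rule were called in G12D/E2-KO, of which 4 were among these 11. H1f0, a linker histone, stood at 171 ± 21.5 CPM in WT members, 168 ± 25.0 CPM in those of E2-KO and 196 ± 62.8 CPM in those of the double mutant, while in other cells it stood at 47.0 ± 8.67, 121 ± 28.6 and 128 ± 49.9 CPM. Its change in members minus that in other cells was -1.27 (adjusted p = 0.00793) in E2-KO and -1.22 (adjusted p = 0.000879) in G12D/E2-KO. Against MEP-like and early erythroid-like cells the first was -1.08 and did not pass (adjusted p = 0.141), while the second did (adjusted p = 0.0111). Cmtm7 (-1.35, adjusted p = 0.00021) and Tyrobp (-1.78, adjusted p = 0.00193) also differed in G12D/E2-KO. Npy was not among the calls. Of the platelet genes outside the rule, Srgn (-0.81, adjusted p = 0.0194) was, but against MEP-like and early erythroid-like cells it did not pass (adjusted p = 0.485).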

How the data were processed

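Single-cell RNA sequencing of c-Kit+ mouse bone marrow gave 12 libraries, 1 for each of 4 genotypes at each of 3 time points. The authors deposited UMI counts per gene and cell, made with Cell Ranger on mm10, after removing cells with over 10% mitochondrial UMIs and predicted doublets. Counts were otherwise not normalized. No doublet caller was run again.

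Cells of G12D T1 whose profile had a cosine above 0.9 (square roots of counts, genes ranked 301 to 8300 by total UMIs) to a cell of G12D/E2-KO T1 were left out. Members were gated as described. The members and gene lists were chosen with earlier results of these data known. UMIs were summed per library over members (135829 to 972278) and over other cells, and tested with edgeR 4.0.16 in R 4.3.3 (TMM, filterByExpr, robust quasi-likelihood fit, genotype and time point as factors, 6 residual degrees of freedom), with Benjamini-Hochberg adjustment and a threshold of 0.05. DESeq2 1.42.0 was an alternative. Time point numbers come from the labels, mark the same time after pIpC, and served as the replicate block. Shares were tested by exact permutation within time points, with Wilson intervals that cover counting error only.

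Named genes were the rule genes, Ezh2 and Nras, up to 6 genes a list by level, the 30 highest and 10 lowest unlisted genes by ratio, and in each contrast up to 10 called genes in each direction with at least 30 CPM and called list members; where fewer than 5 passed, the 5 with the smallest p could be named. Other genes in the text, such as Ect2, Arhgef2 and those of the low, middle and high groups, were picked after their values were seen. The method was tested on simulated data: for G12D/E2-KO against WT within members, 38% of 200 genes changed 2-fold and 91.5% of those changed 4-fold were recovered (3672 and 3706 genes tested), with 5 and 10 false calls. For the change in G12D/E2-KO members minus that in other cells, 18% and 89% were recovered (3659 and 3710 genes tested), with 0 and 12 false calls. The simulated counts had the same spread for every gene of a cell set and no effect of time point, sex or single cells. The rates may thus be better than those in the real data.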

Additional observations from a re-analysis of the deposited data

Results flagged for a closer look

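Each result here was marked because a test of the difference between groups itself passed (edgeR, adjusted p under 0.05). In the interaction, the change in G12D/E2-KO members was below the sum of both single mutant changes for Gdpd3 (-5.96, adjusted p = 0.0199) and Tpm3-rs7 (-4.29, adjusted p = 0.0302), both of which may share reads with other sequence. WT members held 1 Gdpd3 UMI in all, and the mutants stood near each other at 61.6 CPM in E2-KO, 46.6 CPM with G12D and 48.7 CPM with both alleles, so each fold is over a WT level near 0 and the value is not read as an interaction. Tpm3-rs7 did not pass with the matched cells kept in G12D T1 (-4.03, adjusted p = 0.0607) and passed in 7 of 12 fits that left out 1 library (adjusted p up to 0.216).

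The change from WT in members minus that in other cells was -1.27 for H1f0 in E2-KO (adjusted p = 0.00793). This call of H1f0 passed in 8 of 12 fits that left out 1 library (adjusted p up to 0.0996). In G12D the change in members minus that in other cells was -1.14 for Lcn2 (adjusted p = 0.0257), -1.07 for Wfdc21 (adjusted p = 0.0369), -2.92 for Ifi27l2a (adjusted p = 0.0449) and 1.10 for Glrx5 (adjusted p = 0.0449). Against MEP-like and early erythroid-like cells none of these 4 passed in G12D (adjusted p = 0.988 for each). Leaving out 1 library, Lcn2 and Wfdc21 passed in 8 of 12 fits, Ifi27l2a in 6 and Glrx5 in 5, and the value of Ifi27l2a was -11.33 without G12D T3, from levels of 28.0 ± 29.1 CPM in WT and 19.3 ± 33.4 CPM in G12D members (SD, n = 3). In G12D/E2-KO it was -1.34 for Wfdc21, -1.35 for Cmtm7, -1.22 for H1f0, -1.78 for Tyrobp, -1.09 for Lcn2, -1.70 for Pglyrp1, -0.66 for Gpx1, -0.81 for Srgn, -1.29 for Rgcc and -1.44 for Cd24a, with adjusted p from 0.00021 to 0.0499. Against MEP-like and early erythroid-like cells Wfdc21, Lcn2, Pglyrp1, Gpx1, Srgn and Rgcc did not pass (adjusted p = 0.0736 to 0.485). Leaving out 1 library, Gpx1 passed in 8 of 12 fits, Rgcc in 7 and Cd24a in 6 (adjusted p up to 0.540), and Lcn2, Pglyrp1 and Srgn in 10. Lcn2, Wfdc21 and Pglyrp1 are granulocyte genes, and the late granulocyte list summed to 12911 ± 2289 CPM in WT members, 6286 ± 2528 CPM with G12D and 5293 ± 4130 CPM with both alleles (SD, n = 3). The part of free granulocyte RNA in these differences was not tested.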

How the results depend on the processing

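Depth and few libraries limit these results, and most counts of called genes moved with the settings. The Ezh2 effect on the share was -0.019 with at least 4 of the 6 genes. Counts are given in the order E2-KO, G12D, G12D/E2-KO, interaction, Ezh2 effect, NRas effect where they moved by over 1.5 times. DESeq2 called 19 in E2-KO, 7 in G12D/E2-KO, 12 in the interaction and 2 in the NRas effect. With no filter on low counts there were 24, 16, 55, 33, 37 and 8. With only the 2 genotypes compared, E2-KO had 25 and G12D 21. A stricter gate gave 0 in G12D, 0 in the interaction and 9 in the Ezh2 effect. Cells as deposited gave 1 in the interaction, 7 in the Ezh2 effect and 2 in the NRas effect. Without the Thbs1-rich members there were 6 in G12D, 23 in G12D/E2-KO and 4 in the interaction. Among genes higher in members than in other cells there were 6 in E2-KO, 8 in G12D/E2-KO, 8 in the Ezh2 effect and 0 in the NRas effect. Without the replicate block (time point) the NRas effect had 0 calls. For the change in members minus that in other cells (E2-KO, G12D and G12D/E2-KO), DESeq2 gave 4, 0 and 2, no filter 13, 20 and 61, and no replicate block 0, 1 and 6. In G12D it was 2 with RLE size factors and 0 against MEP-like and early erythroid-like cells. The cause of these shifts was not tested.

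Leaving out 1 library at a time gave 5 (without E2-KO T1) to 24 (without G12D/E2-KO T3) calls in E2-KO, 0 (without G12D T3) to 9 (without G12D/E2-KO T3) in G12D, 4 (without WT T3) to 74 (without WT T1) in G12D/E2-KO, 0 (without E2-KO T2) to 29 (without G12D/E2-KO T1) in the interaction, 9 (without WT T3) to 56 (without WT T1) in the Ezh2 effect and 0 to 3 in the NRas effect. The change in members minus that in other cells gave 0 to 6, 0 to 6 and 6 to 45. For the share, the Ezh2 effect was -0.34 to 0.54, the NRas effect -0.81 to 0.070, the interaction 0.75 to 2.86 and G12D/E2-KO against the others -0.18 to 1.2. Npy, Ezh2, Arf5 and Bmi1 passed in the Ezh2 effect in all 12 of these fits. With cells as deposited, Npy in the Ezh2 effect was 3.79 (adjusted p = 0.0887). That fit holds the matched cells in both G12D T1 and G12D/E2-KO T1, so it cannot decide whether the change holds. The alternative that leaves out members with transcripts of other lineages was not run, because it leaves no member in several libraries.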
